A study of Mus musculus with 6 samples.

Results

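Tnfrsf9, Icosl and Cd274, which encode an immune costimulatory receptor and a pair of B7 ligands, differed the most in level between BRL and vehicle among the testable of 10 genes of the tumour necrosis factor (TNF) receptor and B7 families in a mouse cardiomyocyte line. The genes were a chosen list of 7 TNF receptor family genes (Tnfrsf9, Tnfrsf1a, Tnfrsf1b, Tnfrsf10b, Tnfrsf12a, Tnfrsf21 and Fas) and 3 B7 family genes (Icosl, Cd274 and Cd276). They are 10 of the 32739 genes in the deposited files. All 10 were found by symbol, and 8 were among the 12047 genes kept for testing; Tnfrsf1b and Tnfrsf10b had too few counts. The list was chosen on family membership and on the difference in counts between BRL and vehicle in these same libraries, so values of the 10 genes are given as a description. A fit over all genes marks some of them as called; those marks are listed with the values and are no independent evidence of a difference.

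RNA was sequenced from HL-1 cells, an immortalised line of mouse atrial cardiomyocytes that goes back to a tumour of a transgenic mouse. The BRL group (3 libraries) received 5 µM BRL37344, an agonist of the beta-3 adrenergic receptor, and the vehicle group (3 libraries) received the carrier; in both groups hypoxia lasted 6 h and reoxygenation 1 h. There was no group without hypoxia and none with a blocker of the receptor, and the labels do not tell when BRL was added relative to hypoxia. The cells are 1 line, and no label says whether separate cultures gave the 3 libraries of a group, so a p-value measures only the spread between these libraries, which may be technical. In bulk RNA, fewer cells that express a gene and less RNA per cell cannot be told apart.

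TNF receptors are membrane proteins that bind trimeric ligands. Those with a death domain (Tnfrsf1a, Fas, Tnfrsf10b, Tnfrsf21) can recruit death adaptors and caspases, while those without one (Tnfrsf9, Tnfrsf1b, Tnfrsf12a) bind TRAF adaptors that lead to NF-kappaB and MAP kinases. B7 proteins sit on antigen-presenting and tissue cells and give T cells a second signal, which promotes (Icosl) or restrains (Cd274) their response; in the heart both families are best known from inflammation and injury.

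The sequence before the transcription start was looked up for the genes whose values differed the most, to show what lies there. RefSeq sequences of build GRCm38.p6 were at hand for 9 of the 10 genes, as windows of 250 bases before the start; all sequences here are on the + strand and run 5′ to 3′. The first start of Tnfrsf9 has the window chr4:150919905-150920154, Icosl is shown for chr10:78069118-78069301, the stretch of its window free of exons annotated in GENCODE M21, and Cd274 has the window chr19:29367188-29367437.
Tnfrsf9 start 1: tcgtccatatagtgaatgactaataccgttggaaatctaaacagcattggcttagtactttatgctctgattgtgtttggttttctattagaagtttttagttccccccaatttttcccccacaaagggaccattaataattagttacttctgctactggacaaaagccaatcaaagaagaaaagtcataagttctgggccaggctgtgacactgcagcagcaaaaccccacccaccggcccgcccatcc
Icosl: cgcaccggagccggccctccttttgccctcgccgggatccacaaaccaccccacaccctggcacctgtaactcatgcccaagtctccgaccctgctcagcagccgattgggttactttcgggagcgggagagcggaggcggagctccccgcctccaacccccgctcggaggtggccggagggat
Cd274: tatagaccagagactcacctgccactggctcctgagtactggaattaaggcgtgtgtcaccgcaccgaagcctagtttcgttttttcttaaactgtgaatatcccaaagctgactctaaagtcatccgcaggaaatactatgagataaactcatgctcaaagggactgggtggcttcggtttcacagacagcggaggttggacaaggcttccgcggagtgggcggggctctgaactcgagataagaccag

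Windows of 250 bases were searched on both strands for the letters of the cyclic AMP response element (CRE, TGACGTCA), its half-site (TGACG, which the CRE also holds), AP-1 (TGANTCA), NF-kappaB (GGGANTTCC), the NR4A site (AAAGGTCA) and the HIF site (ACGTG). None of the 6 was found in the windows of the first Tnfrsf9 start, Icosl or Cd274. The window of the first Tnfrsf9 start lies inside the Tnfrsf9 gene annotated in GENCODE M21, and sequence before that annotated gene was not searched. RefSeq gives Tnfrsf9 a second start 7844 bases downstream, and the window before it held 1 NF-kappaB match and 1 AP-1 match, shown in capitals with their neighbouring bases; both fall in an exon annotated for other Tnfrsf9 transcripts.
Tnfrsf9 start 2, NF-kappaB match at chr4:150927953-150927969: gctgGGGATTTCCcagg
Tnfrsf9 start 2, AP-1 match at chr4:150927980-150927994: cagtTGAGTCAcagg

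Among 32851 windows of the same length, 1.43% held the NF-kappaB letters, 6.75% the AP-1 letters, 1.55% the CRE, 17.8% its half-site, 1.34% the NR4A letters and 16.6% the HIF letters. Fas held 1 AP-1 match, and its HIF letters were read on both strands of the same site. Tnfrsf21 held 1 HIF match, and the windows of Tnfrsf1a, Tnfrsf1b, Tnfrsf12a and Cd276 held none of the 6. The Cd276 window lies wholly in exons annotated for Cd276 in GENCODE M21. The Tnfrsf1a window lies inside the annotated Tnfrsf1a gene too, with 36 bases in its exons. Sequence before the annotated Cd276 and Tnfrsf1a genes was not searched. A match of letters describes the sequence and shows no binding, and the gene-level counts do not separate the starts of Tnfrsf9.

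Total expected counts, the RSEM estimates of reads per gene, ranged over 6812810 to 8332472 in BRL libraries and 4440168 to 5060049 in vehicle libraries. BRL replicate 1 stood apart: 5.03% of its counts came from mitochondrially encoded genes, against 20.0% to 21.9% in the other BRL libraries and 16.5% to 20.2% in vehicle libraries. Results are therefore also given without it. The 13 cardiomyocyte markers, all detected, summed to 4665 to 6176 CPM (counts scaled to a common library total) in BRL libraries and to 8114 to 8978 CPM in vehicle libraries, with BRL replicate 1 lowest. Because TNF receptors and B7 ligands are genes of leukocytes too, 13 leukocyte markers were summed; they reached 2.78 to 5.74 CPM in BRL libraries and 3.65 to 4.62 CPM in vehicle libraries, ranges that overlap. Ptprc, Adgre1, Csf1r, Lyz2 and Tyrobp were at 0 in all 6 libraries, and of the 13 only Cd68 and Fcgr3 exceeded 3 counts in a library.

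Of the 8 tested genes, 2 were called higher with BRL (Tnfrsf9 and Icosl) where 1.01% of all 12047 genes were, in edgeR's quasi-likelihood test with an adjusted p under 0.05. Cd274 was the 1 called lower, where 1.79% of all genes were. Every BRL library lay above every vehicle library for 3 of the 8 (Tnfrsf9, Tnfrsf1a and Icosl; 16.0% of all genes) and below for 1 (Cd274; 15.5% of all genes), and the groups overlapped for 4. Since the list was chosen on this same contrast, its calls were favoured from the start, and nothing is read from these counts or from their distance to the shares of all genes. For the 8 genes the log2 fold changes had a median of 0.09 (0.20 without BRL replicate 1), and for all tested genes 0.0051 (0.0025 without it).

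**Figure D1:**
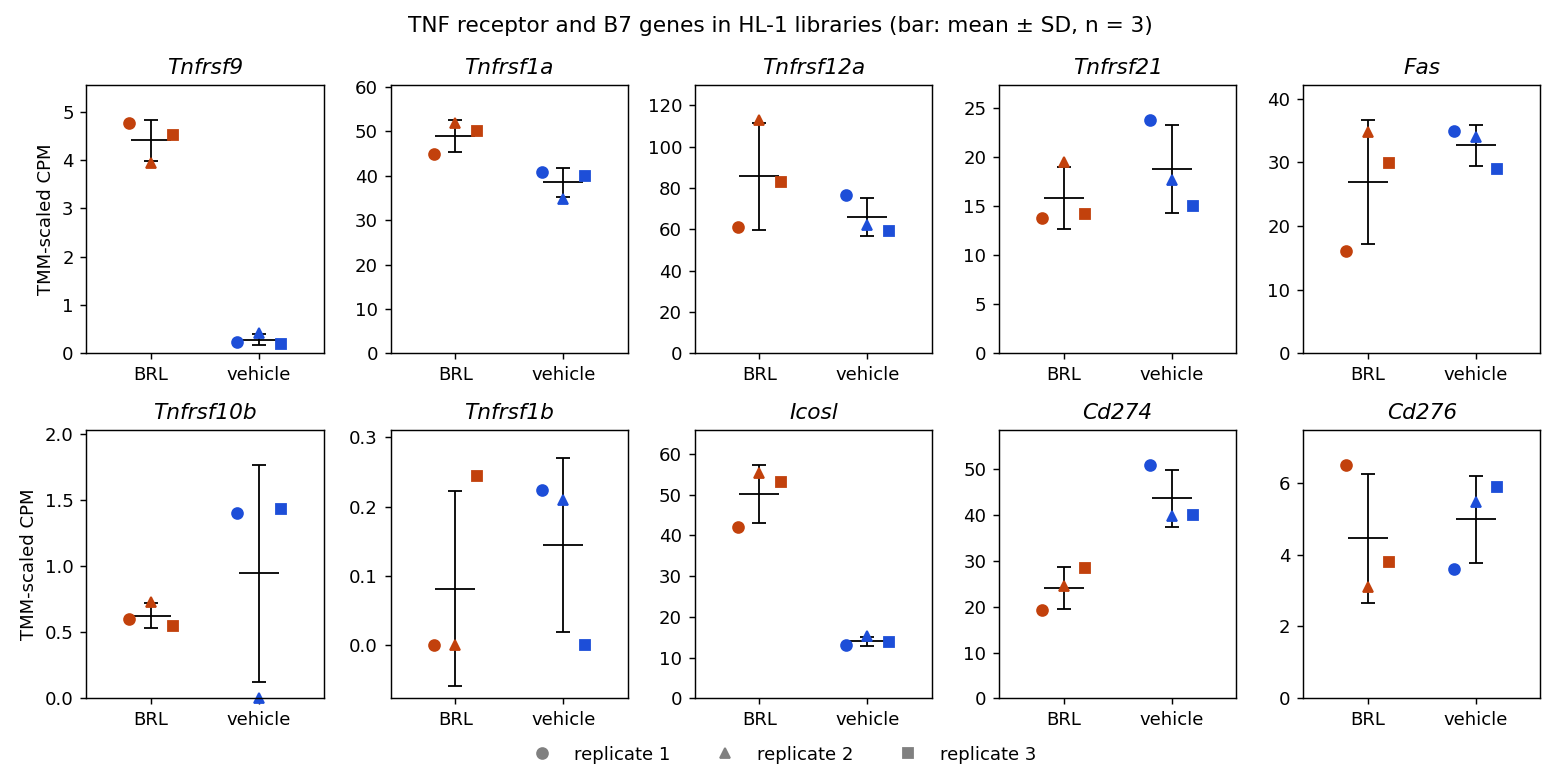
Level of each of the 10 genes in TMM-scaled CPM (vertical axes, each with its own scale), with BRL left of vehicle; symbols mark the replicate, and bars give mean ± SD over 3 libraries. The groups are apart for Tnfrsf9, Tnfrsf1a, Icosl and Cd274. BRL replicate 1 is the lowest BRL library for Fas, Tnfrsf12a, Tnfrsf1a, Tnfrsf21, Icosl and Cd274, and the highest for Tnfrsf9 and Cd276.

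Tnfrsf9 (ENSMUSG00000028965, chromosome 4), a costimulatory receptor best known from activated T cells, was close to undetected with vehicle and low but present with BRL. It had 36, 28 and 37 counts in BRL replicates 1 to 3, against 1, 2 and 1 count in vehicle replicates 1 to 3. These were 4.41 ± 0.42 CPM in BRL libraries and 0.282 ± 0.120 CPM in vehicle libraries (SD, n = 3 each). The 3 BRL libraries lay close together, BRL replicate 1 among them, and every vehicle library was under 3 counts, the floor used here, which is 0.608 to 0.673 CPM at their depth. Over the summed counts, 101 in BRL and 4 in vehicle, the ratio was 15.65 after scaling for depth, with an exact 95% interval of 5.93 to 58.55 that covers counting error only. The fitted log2 fold change was 3.87 ± 0.42 (SE) and 3.82 without BRL replicate 1; its size depends on how near-zero counts are handled. Of the 6 fits that each left out 1 library, 5 still called it, and the one without vehicle replicate 3 did not, at 3.69. With 1 to 2 counts in vehicle libraries, Tnfrsf9 passed the filter on low counts through BRL libraries alone. Its calls are thus no further support for the difference.

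The genes whose profile over the 6 libraries was most like that of Tnfrsf9 were sought among 11671 genes with a mean of 1 CPM or more, by the root mean square difference of log2 CPM centred on each gene's mean. A pseudocount of 0.5 CPM was added first, and since it exceeds the vehicle level of Tnfrsf9 in every library, it sets part of the likeness and draws in genes with a smaller fold. Gm14303 was nearest at 0.243; it had 1.79 to 2.80 CPM in BRL libraries and no counts in vehicle libraries, so it passed the level minimum through BRL libraries alone. Its counts were not whole, so reads were shared with other loci. Dact1, which encodes a modulator of Wnt signalling, followed at 0.274, with 55.1 to 66.3 CPM in BRL libraries and 11.7 to 13.9 CPM in vehicle libraries. Nr4a3, a nuclear receptor gene of the immediate early class, was next at 0.278, with 27.8 to 33.2 CPM in BRL libraries and 4.26 to 6.05 CPM in vehicle libraries. Icosl ranked 8 of 11671 at 0.474. The likeness was computed over both groups, so it reflects the same difference between them and is no further support for it.

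Icosl (ENSMUSG00000000732, chromosome 10), the ligand of the T cell costimulator ICOS, was well covered in every library. It had 318, 393 and 435 counts in BRL replicates 1 to 3, against 58, 73 and 68 counts in vehicle replicates 1 to 3. At 50.2 ± 7.1 CPM in BRL libraries and 14.0 ± 1.2 CPM in vehicle libraries (SD, n = 3 each), the groups were far apart relative to their spread. The lowest BRL library, replicate 1 at 42.1 CPM, still exceeded the highest vehicle library, replicate 2 at 15.3 CPM. The fold was 3.57, a log2 fold change of 1.84 ± 0.15 (SE), and it was 1.95 without BRL replicate 1. Over all 17 alternatives it ranged over 1.76 to 1.95 and was called in each, including all 6 fits that left out 1 library. These fits reuse the libraries on which the gene was chosen, so the calls are no further support for the difference. No other gene's exons overlap it in GENCODE M21, and all its counts were whole within 0.005.

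Cd274 (ENSMUSG00000016496, chromosome 19), which encodes PD-L1, the inhibitory ligand of the T cell receptor PD-1, lay in the other direction. It had 145, 174.48 and 232.94 expected counts in BRL replicates 1 to 3, against 226.59, 189.7 and 197.51 in vehicle replicates 1 to 3. Scaled for depth, these were 19.2, 24.6 and 28.5 CPM in BRL libraries and 50.8, 39.8 and 40.03 CPM in vehicle libraries, so every BRL library lay below every vehicle library. The log2 fold change was -0.86 ± 0.17 (SE), a level 1.81-fold higher in vehicle. It was -0.71 without BRL replicate 1, which was the lowest of the 3 BRL libraries. The value kept its sign in all 17 alternatives, from -0.997 to -0.707, but the call was lost in 5 of the 6 fits that left out 1 library, all but the one without BRL replicate 1. Its counts were not whole, and AC119228.1 overlaps its exons on the opposite strand; the labels do not say whether strand was used in counting, so reads of the pair may not be told apart.

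Cd276 (ENSMUSG00000035914, chromosome 9), a B7 protein that acts on T cells as an immune checkpoint, had few counts. It had 49, 22 and 31 counts in BRL replicates 1 to 3, against 16, 26 and 29 in vehicle replicates 1 to 3. At 4.46 ± 1.79 CPM in BRL libraries and 4.97 ± 1.22 CPM in vehicle libraries (SD, n = 3 each), the groups overlapped. BRL replicate 1, at 6.49 CPM, was the highest of all 6 libraries, while the other BRL libraries had 3.10 and 3.79 CPM. On the log2 scale the fold change was -0.16 ± 0.35 (SE) with it and -0.52 without it, and its sign turned, at 0.04, without BRL replicate 2. Gm10657 overlaps its exons on the opposite strand.

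Among the receptors with a death domain, Tnfrsf1a (ENSMUSG00000030341, chromosome 6), the main receptor for TNF, was the one whose groups did not overlap. It had 45.0, 51.9 and 50.1 CPM in BRL replicates 1 to 3, against 40.8, 34.8 and 39.9 CPM in vehicle replicates 1 to 3. The gap was narrow: the lowest BRL library, replicate 1, lay just above the highest vehicle library, replicate 1. The log2 fold change was 0.35 ± 0.11 (SE), which missed the adjusted threshold, and the value was 0.41 and past the threshold without BRL replicate 1. The other fits that left out 1 library gave 0.28 to 0.40, none past the threshold.

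Fas (ENSMUSG00000024778, chromosome 19), the receptor of Fas ligand, turned on 1 library. It had 16.01, 34.8 and 29.9 CPM in BRL replicates 1 to 3, against 34.98, 33.99 and 28.99 CPM in vehicle replicates 1 to 3. BRL replicates 2 and 3 lay within the vehicle range, and BRL replicate 1 was lower than the vehicle mean by 1.03 on the log2 scale. Its log2 fold change was -0.28 ± 0.25 (SE) with BRL replicate 1 and -0.01 without it.

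Tnfrsf21 (ENSMUSG00000023915, chromosome 17), a death domain receptor studied mostly in neurons and lymphocytes, had 13.8, 19.5 and 14.2 CPM in BRL replicates 1 to 3, against 23.8, 17.6 and 15 CPM in vehicle replicates 1 to 3. The groups overlapped, and the highest library was vehicle replicate 1. With all libraries the log2 fold change was -0.25 ± 0.21 (SE), and -0.16 without BRL replicate 1. Without vehicle replicate 1 it was -0.04 ± 0.21 (SE).

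Tnfrsf10b (ENSMUSG00000022074, chromosome 14), the mouse receptor for the death ligand TRAIL, had 4.55, 5.18 and 4.46 expected counts in BRL replicates 1 to 3, against 6.27, 0 and 7.06 in vehicle replicates 1 to 3. These counts were not whole, and the groups overlapped because 1 vehicle library had none. The gene was left out of the test by the filter on low counts.

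Of the receptors without a death domain besides Tnfrsf9, Tnfrsf12a (ENSMUSG00000023905, chromosome 17), the receptor of the cytokine TWEAK, was per length the most abundant of the 10 genes. It had 61.2, 113 and 82.7 CPM in BRL replicates 1 to 3, against 76.5, 61.9 and 59.4 CPM in vehicle replicates 1 to 3. BRL replicates 2 and 3 lay above all vehicle libraries, while BRL replicate 1 lay within the vehicle range. The log2 fold change was 0.38 ± 0.21 (SE) with BRL replicate 1 and not called, and it was 0.57 and past the threshold without it. Without BRL replicate 2, the highest library, it was 0.13 ± 0.17 (SE). No other fit that left out 1 library called Tnfrsf12a.

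Tnfrsf1b (ENSMUSG00000028599, chromosome 4), the TNF receptor that responds best to membrane-bound TNF, had 0, 0 and 2 counts in BRL replicates 1 to 3, against 1, 1 and 0 in vehicle replicates 1 to 3. Every library was thus under the floor of 3 counts, and no fold is given. At these depths the floor is 0.367 to 0.422 CPM in BRL libraries and 0.608 to 0.673 CPM in vehicle libraries.

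**Figure D2:**
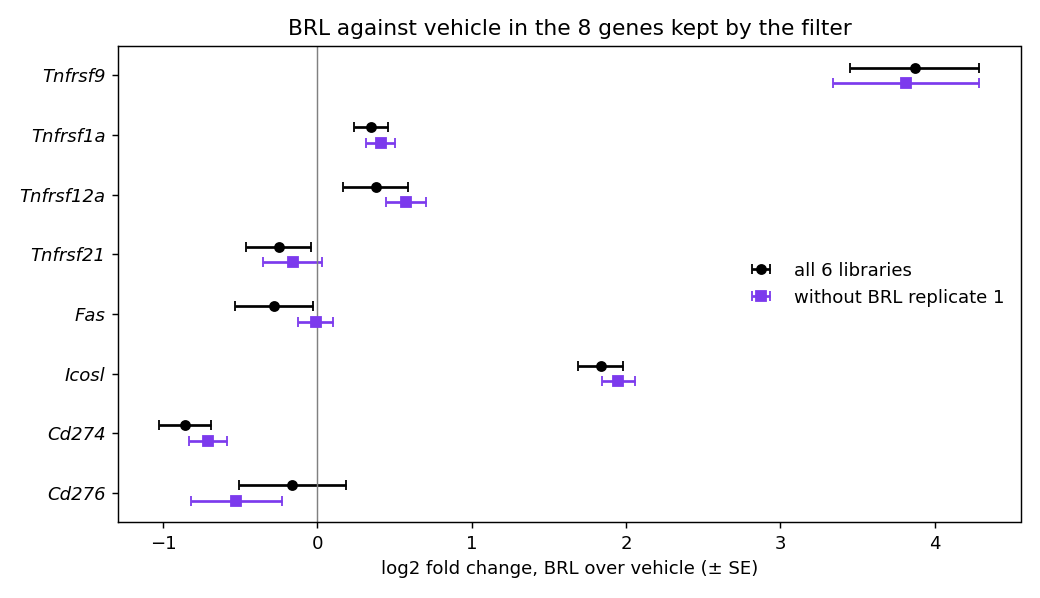
Log2 fold change of BRL over vehicle (horizontal axis, ± SE) for the 8 tested genes, from all 6 libraries (black circles) and without BRL replicate 1 (violet squares). Tnfrsf9 and Icosl lie far to the right and Cd274 to the left in both fits, while Fas lies at -0.28 with BRL replicate 1 and at -0.01 without it.

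Without BRL replicate 1, 4 of the 8 genes were called higher (Tnfrsf9, Icosl, Tnfrsf1a and Tnfrsf12a) and 1 lower (Cd274). The background moved with it: that fit called 10.3% of 12064 genes higher and 10.9% lower. How the low mitochondrial share of BRL replicate 1 bears on the 8 genes, Fas, Tnfrsf12a and Cd276 among them, was not tested.

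Levels of different genes were set side by side only per length, in TPM (transcripts scaled to the same total in every library), taken from the fraction that RSEM gives for each gene and read within a group. With BRL the order was Tnfrsf12a at 148 TPM, Tnfrsf1a at 38.9, Icosl at 30.3, Fas at 29.9, Cd274 at 10.6, Tnfrsf21 at 6.99, Tnfrsf9 at 5.63, Cd276 at 2.40, Tnfrsf10b at 0.321 and Tnfrsf1b at 0.0316 TPM. Icosl and its neighbour Fas did not differ beyond their spread, nor did Tnfrsf21 and Tnfrsf9; the other 7 neighbouring pairs had ranges apart. With vehicle the order was Tnfrsf12a at 112.7 TPM, Fas at 37.05, Tnfrsf1a at 28.9, Cd274 at 18.6, Icosl at 8.40, Tnfrsf21 at 8.05, Cd276 at 2.40, Tnfrsf10b at 0.468, Tnfrsf9 at 0.408 and Tnfrsf1b at 0.0590 TPM. There Icosl overlapped Tnfrsf21 and Tnfrsf10b overlapped Tnfrsf9.

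The B7 ligands Icosl and Cd274 changed places in the order. The Icosl mean was above the Cd274 mean with BRL, at 30.3 ± 1.2 and 10.6 ± 1.1 TPM, and below it with vehicle, at 8.40 ± 0.15 and 18.6 ± 3.4 TPM (SD, n = 3 libraries each), with ranges apart in both groups. Tnfrsf9 stood above Cd276 with BRL and below it with vehicle, also with ranges apart. TPM shifts with the share of mitochondrial RNA in a library, and BRL replicate 1 has another such share than the rest, so TPM is not compared between groups.

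**Figure D3:**
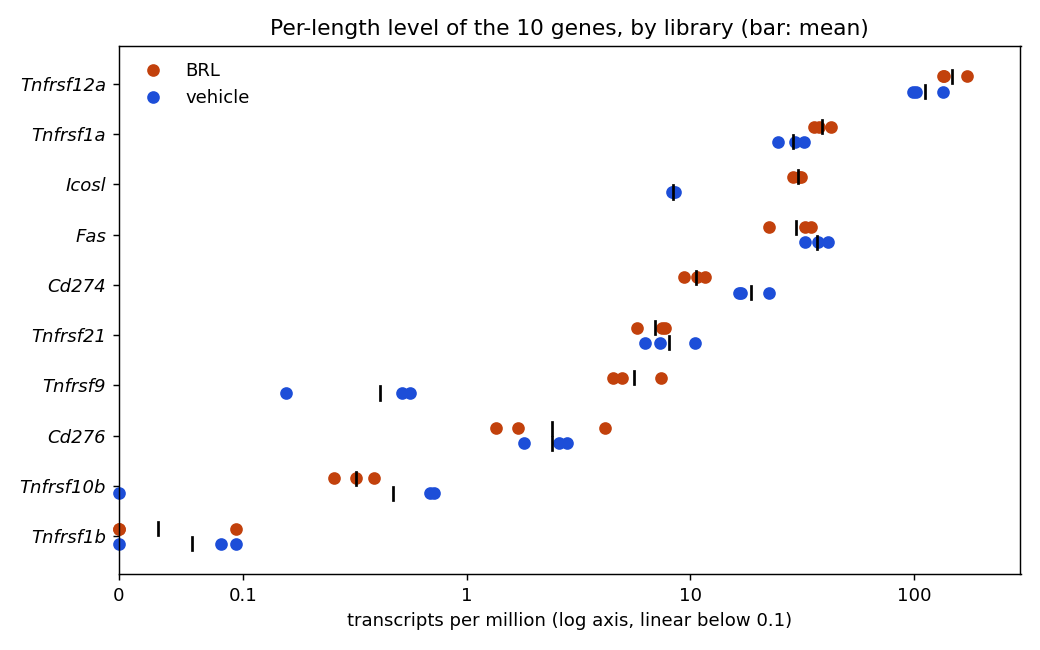
Per-length level of each gene in TPM (horizontal log axis, linear below 0.1), with BRL libraries above vehicle libraries in each row and black bars at the group means. Tnfrsf12a is the most abundant in both groups, Icosl lies right of Cd274 with BRL and left of it with vehicle, and Tnfrsf1b and Tnfrsf10b lie at the bottom.

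The partners of these genes were described from 7 lists with 107 genes in all, of which 105 had a row and 66 were tested. None of the 66 passed the adjusted threshold upward and 1, Adam10, passed it downward in edgeR's quasi-likelihood test, which called 2.81% of all genes in either direction. At an unadjusted p under 0.05 there were 17 of the 66 (10 higher and 7 lower), where 22.4% of all 12047 genes had such a p (11.6% higher and 10.8% lower). Counts at an unadjusted p for single lists are to be read against these shares. DESeq2 called 1, limma-voom 0 and edgeR's exact test 3. Over all 12047 genes, DESeq2 called 246 higher and 355 lower, limma-voom 95 and 184, and the exact test 418 and 527. Calls by these tests in single lists are to be read against those numbers. When BRL replicate 1 was left out, 8 of the 66 were called higher and 6 lower, with the background shares of that fit given above.

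Most ligands of the receptors were at or near 0 counts. Tnfsf12, the TWEAK gene and so that of the Tnfrsf12a ligand, had no row and could not be assessed. Of 17 TNF ligand genes with a row, Tnf, Tnfsf4, Cd40lg, Cd70, Tnfsf8, Tnfsf11 and Tnfsf14 were at 0 in all 6 libraries. Another 7, among them Fasl, Lta and Tnfsf9, the ligands of Fas, Tnfrsf1a and the Tnfrsf9 receptor, did not exceed 3 counts in any library. Of the 3 tested ligands none was called (1 at an unadjusted p under 0.05, 0 by DESeq2, the exact test and voom), and Tnfsf10, the TRAIL gene, had 1.67 to 3.50 CPM in BRL libraries and 2.17 to 2.75 CPM in vehicle libraries. The smallest p was that of Eda, the ligand of the ectodysplasin receptor, with 10.03 ± 2.19 CPM in BRL libraries and 14.04 ± 1.71 CPM in vehicle libraries. Its log2 fold change was -0.48 ± 0.20 (SE, edgeR adjusted p = 0.206). The edgeR adjusted p was 0.0232 without BRL replicate 1 and 0.306 to 0.454 when any other library was left out.

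Most T cell partners of the B7 ligands were not detected. Icos, Ctla4 and Pdcd1, the receptors of Icosl, of other B7 ligands and of Cd274, were at 0 in all 6 libraries, as were Cd86, Pdcd1lg2 and Vsir. Cd28, the costimulatory receptor of Cd80 and Cd86, had 2, 6 and 3 counts in BRL replicates 1 to 3, against 2, 5 and 5 in vehicle replicates 1 to 3, too few to be tested, and the groups overlapped. Cd80 and Cmtm6 were the 2 tested of the 11 genes with a row, and neither was called, nor had either an unadjusted p under 0.05. Cmtm6, whose product keeps PD-L1 on the cell surface, had 37.1 ± 2.8 CPM in BRL libraries and 32.4 ± 2.8 CPM in vehicle libraries. Its log2 fold change was 0.20 ± 0.12 (SE), with an edgeR adjusted p of 0.361, and 0.367 without BRL replicate 1. Cd80, a ligand of CD28 and CTLA-4, had 2.12, 7.88 and 9.53 CPM in BRL replicates 1 to 3 and 9.19, 9.44 and 11.8 CPM in vehicle replicates 1 to 3.

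Of the 21 other TNF receptor genes, 8 were tested and none was called (3 at an unadjusted p under 0.05, 0 by DESeq2, the exact test and voom). Their median log2 fold change was -0.25 over all libraries, and its sign turned, to 0.14, without BRL replicate 1. Ltbr, the lymphotoxin beta receptor, had the smallest p, with 60.6 ± 1.5 CPM in BRL libraries and 50.9 ± 1.4 CPM in vehicle libraries. Its log2 fold change was 0.25 ± 0.09 (SE, edgeR adjusted p = 0.159). The edgeR adjusted p was 0.0274 without BRL replicate 1 and 0.246 to 0.424 when any other library was left out. Tnfrsf11a, Tnfrsf11b and Tnfrsf14 were at 0 in all libraries.

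Most of the machinery downstream of the receptors was expressed: 19 of 20 adaptors and ubiquitin enzymes, 10 of 12 death effectors and all 18 kinases and NF-kappaB subunits were tested. The adaptor left out was Traf1, with 0 or 1 count in each library. The death effectors left out were Ripk3, also with 0 or 1 count, and Faim2, with 0 to 4 counts. None of these tested genes was called by the quasi-likelihood test, DESeq2 or voom; the exact test called 1 adaptor and 1 gene of the kinase list, and 8 adaptors, 0 death effectors and 4 genes of the kinase list had an unadjusted p under 0.05. List medians of the log2 fold change were 0.08, -0.01 and 0.04 for adaptors, death effectors and the kinase list, and 0.12, 0.0015 and 0.04 without BRL replicate 1.

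Traf2, a TRAF adaptor that Tnfrsf9 and Tnfrsf1b bind, had the smallest p of the adaptors, with 35.3 ± 3.9 CPM in BRL libraries and 25.4 ± 1.0 CPM in vehicle libraries. Its log2 fold change was 0.47 ± 0.12 (SE, edgeR adjusted p = 0.0756), and its counts were not whole. The edgeR adjusted p was 0.0179 without BRL replicate 1 and 0.0828 to 0.303 when any other library was left out. Nfkb1, which encodes an NF-kappaB subunit and its precursor, had 82.5 ± 4.5 CPM in BRL libraries and 64.7 ± 3.5 CPM in vehicle libraries. That is 0.35 ± 0.10 (SE) on the log2 scale, with an edgeR adjusted p of 0.0899 over all libraries. The edgeR adjusted p was 0.015 without BRL replicate 1 and 0.108 to 0.329 when any other library was left out. Bid, which links death receptors to mitochondria, had 7.77 ± 1.28 CPM in BRL libraries and 5.66 ± 0.77 CPM in vehicle libraries. That is 0.46 ± 0.23 (SE) on the log2 scale, with an edgeR adjusted p of 0.271, and 0.336 without BRL replicate 1. Bid counts were not whole, and Bcl2l13 overlaps its exons on the opposite strand.

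Adam10 fell; it encodes a membrane protease that cleaves receptors and ligands from the cell surface. It had 104.8, 85.2 and 84.9 CPM in BRL replicates 1 to 3, against 142.6, 121.5 and 142.9 CPM in vehicle replicates 1 to 3, so every BRL library lay below every vehicle library. The log2 fold change was -0.57 ± 0.12 (SE, edgeR adjusted p = 0.0498). The edgeR adjusted p was 0.00014 without BRL replicate 1 and 0.107 to 0.253 when any other library was left out. The call sat at the threshold and was lost in 9 of 17 alternatives, while the value stayed within -0.67 to -0.51. Adam17, the protease best known for cleaving TNF and its receptors, had 101 CPM in BRL libraries and 95.6 CPM in vehicle libraries on average. That is 0.08 ± 0.09 (SE) on the log2 scale, with an edgeR adjusted p of 0.650, and 0.707 without BRL replicate 1.

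**Figure D4:**
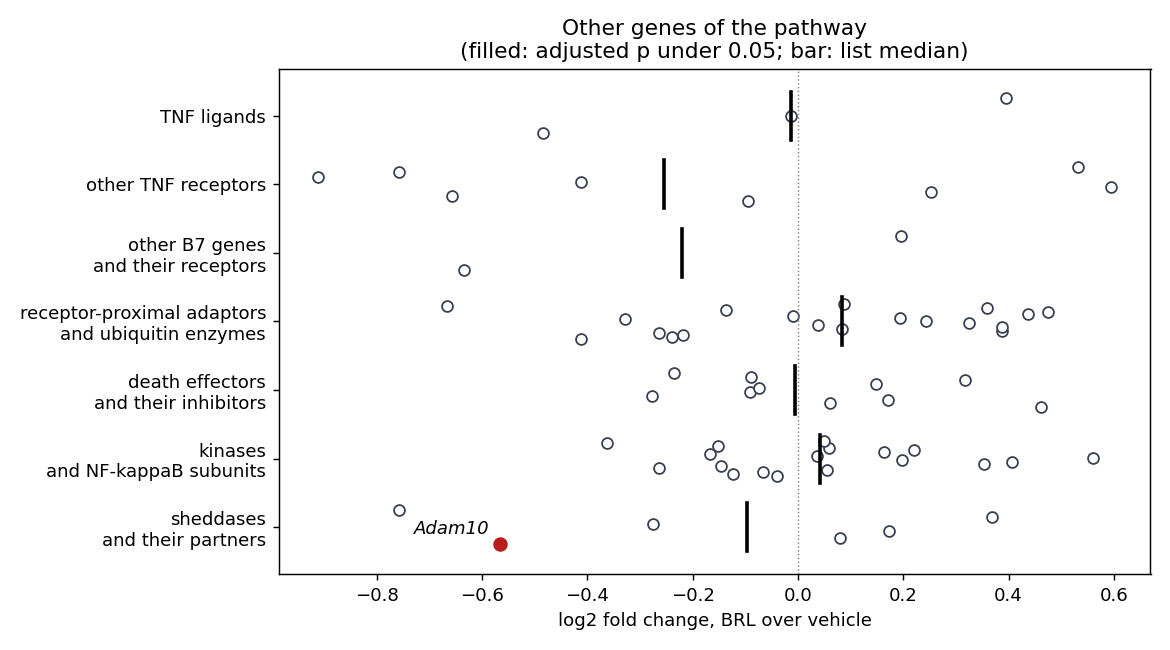
Log2 fold change of BRL over vehicle (horizontal axis) for the 66 tested genes of the 7 lists (rows), 1 point per gene, with black bars at list medians. Adam10, filled, is the 1 gene past the adjusted threshold, and the medians lie between -0.25 and 0.08; the lowest, that of the other TNF receptors, is 0.14 without BRL replicate 1.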

How the data were processed

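RNA-seq of 6 HL-1 libraries was used, with groups and replicate numbers from the sample titles. The times of hypoxia and reoxygenation come from the series design. The sample descriptions hold ReOx7h, which was taken as 6 h of hypoxia plus 1 h of reoxygenation. The submitters' processing notes name Bowtie, cutadapt, RSEM 1.17, edgeR and genome build NCBIM37; their settings and strandedness are not stated there. For each gene, the deposited files of the samples give RSEM's expected count and its fraction of transcripts. The deposited series table holds the authors' log2 values for 13863 genes and served as an alternative.

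Expected counts split reads that fit several loci, so counts are called whole when within 0.005 of an integer. Rounded counts went through edgeR 4.0.16 (R 4.3.3), with filterByExpr at a minimum count of 10, TMM scaling, a quasi-likelihood F-test for group, no other covariate, and Benjamini-Hochberg adjustment over 12047 genes, at a threshold of 0.05. The SE is the size of the log2 fold change divided by the root of F. CPM is TMM-scaled; TPM is the fraction on the usual scale. Depth was 4440168 to 8332472 expected counts a library. The fit was tested on simulated data with known changes. The simulated libraries held no outlier such as BRL replicate 1, so that test does not cover such a case.

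The 10 genes, the 7 pathway lists and the 5 marker lists were chosen with earlier results of these data known. Named were the 10 genes, from each pathway list the genes past the threshold (at most 6, by p) or else the one of smallest p, and the 3 genes with the profile most like Tnfrsf9, after a pseudocount of 0.5 CPM; Tnfsf10, Cd28, Cd80 and Adam17 were named besides, after their values were seen. The other marker lists, in summed CPM, were at 3.31 to 3.67 in BRL and 3.78 to 5.88 in vehicle libraries for fibroblasts (8 genes; Dcn, Thy1, Lum and Tcf21 at 0), at 2.78 to 4.57 in BRL and 3.65 to 6.32 in vehicle libraries for endothelium (6 genes; Emcn at 0), and at 1724 to 3273 in BRL and 3706 to 4129 in vehicle libraries for smooth muscle (8 genes, many of them shared with cardiac muscle). Exon overlaps were taken from GENCODE M21 and promoter windows from RefSeq, both of GRCm38, and no coordinates of the authors' build are given. Alternatives were RLE and upper-quartile factors, no filter, a minimum count of 20, unrounded counts, DESeq2 1.42.0, edgeR's exact test, limma-voom (limma 3.58.1), limma on the authors' log2 values, mitochondrially encoded genes left out, a replicate block and each library left out.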

Additional observations from a re-analysis of the deposited data

How the results depend on the processing

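Counts of called genes, 122 higher and 216 lower with BRL, depended on the test and on single libraries. They were 282 higher and 330 lower with no filter, 246 and 355 with DESeq2, and 418 and 527 with edgeR's exact test; leaving out 1 library gave 17 to 1240 higher and 15 to 1315 lower, the most without BRL replicate 1. Of the 8 tested genes, 2 were called higher (1.01% of all genes) and 1 lower (1.79% of all genes). Leaving out 1 library gave 1 to 4 higher and 0 to 1 lower. There was 1 higher without vehicle replicate 3 and 4 without BRL replicate 1, where 10.3% of all genes were called higher. Of the other pathway genes, 0 were called higher and 1 lower; the exact test called 2 higher, the 1 lower call became 0 with RLE factors, limma-voom or mitochondrially encoded genes left out, and leaving out 1 library gave 0 to 8 higher and 0 to 6 lower. The log2 fold changes of Tnfrsf9, Icosl, Cd274 and Adam10 kept their sign in the 17 alternatives; causes of the lost calls were not tested. Tnfrsf9 ranged over 3.55 to 4.26, lowest on the authors' log2 values. In CPM over length, 9 of 9 neighbouring pairs kept the order of levels with BRL and 7 of 9 with vehicle.

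Replicate numbers are shared by the groups but no label says that they pair libraries; same-numbered libraries deviated together with correlations of 0.102, -0.021 and -0.018. With a replicate block, 63 genes were called higher and 150 lower. Cd274 and Adam10 lost their calls, so that 0 of the 8 tested genes and 0 of the other pathway genes were called lower. Depth limits Tnfrsf1b, Tnfrsf10b and the vehicle level of Tnfrsf9, which are at or near the floor of 3 counts.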
